A study of Mus musculus with 8 samples.

Results

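Cholesterol biosynthesis enzymes are described here through 8 genes, Hmgcs1, Fdps, Fdft1, Sqle, Lss, Cyp51, Ebp and Dhcr7, in the testes of juvenile mice. They were found by name: every non-control probe of the arrays whose gene name was one of the 8 was taken, which gave 10 of 55681 probes. Of these, 9 were kept among 37529 probes, and all 8 genes were measured among 26450 genes tested. RNA came from whole testes of C57BL/6 Ip6k1+/+ (wild type) and Ip6k1-/- (knockout) littermates born to Ip6k1+/- parents, taken at 17 or 26 dpp (days post partum). Ip6k1 encodes inositol hexakisphosphate kinase 1, which makes inositol pyrophosphates. Each of the 4 groups had 2 biological replicates, 1 array each. The labels name no deletion limited to 1 cell type and no other treatment. Pups at 17 dpp were not yet weaned, while mice at 26 dpp were.

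Cells make cholesterol from acetyl-CoA through mevalonate, isoprenoid pyrophosphates, squalene and lanosterol. The genes of this route are commonly switched on together by SREBP-2 when sterols run low. In the testis, Leydig cells turn cholesterol into testosterone, Sertoli cells make and store it, and germ cells produce sterol intermediates such as the meiosis-activating sterol formed by CYP51. Levels are given as log2 of the spot signal relative to the array's 75th percentile, so a value of 0 is the level below which 75% of the non-control probes of that array lay. Values of different genes come from different probes and are not set against each other.

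The promoters of these enzymes are known for sites of SREBP-2 beside boxes of the factor NF-Y, so the bases before the start are shown for the members that have an entry in the RefSeq promoter table (build GRCm38.p6). Entries were found for 5 of the 8 genes, and for Fdft1, Fdps and Sqle none is given. Capitals mark CCAAT, the NF-Y box (it reads ATTGG when it lies on the other strand), and TCACNCCA, a core of the sterol response element. Each sequence runs 5' to 3' on the gene's strand and ends at the last base before the annotated start.
Hmgcs1, chr13:119690171-119690350, + strand: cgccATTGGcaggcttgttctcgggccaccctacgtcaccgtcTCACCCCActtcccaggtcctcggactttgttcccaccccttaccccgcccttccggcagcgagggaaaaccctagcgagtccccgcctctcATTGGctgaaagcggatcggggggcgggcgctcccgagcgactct
Dhcr7, chr7:143830114-143830213, + strand: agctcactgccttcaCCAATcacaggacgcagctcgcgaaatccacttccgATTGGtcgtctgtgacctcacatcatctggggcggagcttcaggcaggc
Ebp, chrX:8193513-8193612, - strand: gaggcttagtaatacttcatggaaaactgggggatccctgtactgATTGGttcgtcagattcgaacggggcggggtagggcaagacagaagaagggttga
Lss, chr10:76531505-76531604, + strand: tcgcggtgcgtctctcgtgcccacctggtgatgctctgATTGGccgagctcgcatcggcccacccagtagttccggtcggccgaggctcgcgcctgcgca
Cyp51, chr5:4104698-4104797, - strand: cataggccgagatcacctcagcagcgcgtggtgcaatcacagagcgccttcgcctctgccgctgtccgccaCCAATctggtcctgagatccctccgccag

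All 5 genes had a CCAAT box in at least 1 window, where a window runs from 250 bases before to 50 bases after a start. The nearest boxes before the start began at -45 in Hmgcs1, -49 in Dhcr7, -55 in Ebp, -62 in Lss and -29 in Cyp51, counted from the annotated start. CCAAT was present in 5 of the 7 windows of these genes and in 37.4% of 32851 promoter windows. The sterol response core TCACNCCA was found in Hmgcs1 alone among the 5, as TCACCCCA at -137, and in 4.4% of all windows. GGGCGG, a GC box, was found in 6 of the 7 windows and in 35.7% of all windows. TGACG, the start of the cAMP response element, was found in 3 of the 7 (Hmgcs1, Ebp and Cyp51) and in 20.8% of all. All motifs were sought on both strands, no matches of different motifs shared bases in these windows, and Dhcr7 has 3 of the 7 windows, of which only the one shown holds CCAAT. A match is a run of letters, not evidence of binding.

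Replicate 2 of the 26 dpp knockout group stood apart from its group, and results that rest on it are given with and without it. Its correlation with replicate 1 was 0.863 over all genes tested, against 0.979 to 0.989 within the other groups, and its correlation with the 17 dpp arrays was 0.917 to 0.948. The summed linear level of 10 elongating spermatid markers was 0.483 to 0.81 on the 17 dpp arrays, 570 to 1600 on 3 of the 26 dpp arrays and 0.755 on this array. For 12 Sertoli cell markers the sum was 627 to 705 at 17 dpp, 277 to 306 on the 3 other 26 dpp arrays and 633 on this one. Their median log2 level on it was 3.56, against 3.05 to 3.26 on the other 26 dpp arrays and 4.37 to 4.84 at 17 dpp. The 10 spermatocyte markers summed to 490 on this array, near the 446 to 483 of the other 26 dpp arrays. At 17 dpp they summed to between 85.6 and 172. Their median log2 level was 2.06, between -1.36 to 0.69 at 17 dpp and 3.84 to 3.93 on the other 26 dpp arrays. The 10 round spermatid markers summed to 13.5, between the 2.6 to 3.78 at 17 dpp and the 116 to 171 of the other 26 dpp arrays. Leydig cell markers, 7 of 8 measured, summed to 1.04 on it and to between 12.1 and 28.2 elsewhere. The median log2 level of these 7 was -4.22 on it and between -2.92 and -0.65 elsewhere. Ip6k1 itself separated the genotypes on every array, at 2.38 to 2.92 in the wild type and 1.49 to 1.67 in the knockout, this array included. Adipocyte markers, 7 of 8 measured, summed to 266 on wild type replicate 2 at 17 dpp and to between 5.82 and 52.3 elsewhere, and 7 measured epididymis markers were well above background on both 17 dpp wild type arrays, against 2 or 3 of the 7 on the others. All arrays shared 1 slide and scan time, with the 17 dpp arrays in one row of the slide and the 26 dpp arrays in the other, so row and age cannot be told apart. Of the probes, 58.8% to 64.7% were well above background on each array, and none was saturated.

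In wild type testes, some of the enzymes rose and others fell between 17 and 26 dpp, as also happened among all genes. Fdft1 and Sqle, which act one after the other where the route turns to sterols, rose by 8.15-fold and 2-fold. Hmgcs1, at the head of the route, and Dhcr7 and Ebp, near its end, fell by 2.49-fold, 2.49-fold and 3.44-fold. Thus 5 of the 8 passed the limma test at an adjusted p under 0.05 over all genes, 2 higher and 3 lower, where 45.9% of all genes passed (18.6% higher and 27.4% lower). A call was thus a common outcome in this comparison. The members' median difference was -0.50 on the log2 scale, beside -0.51 for all genes, of which 35.9% were above 0. In whole testis RNA, fewer cells of a type and less RNA per cell cannot be told apart.

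**Figure D1:**
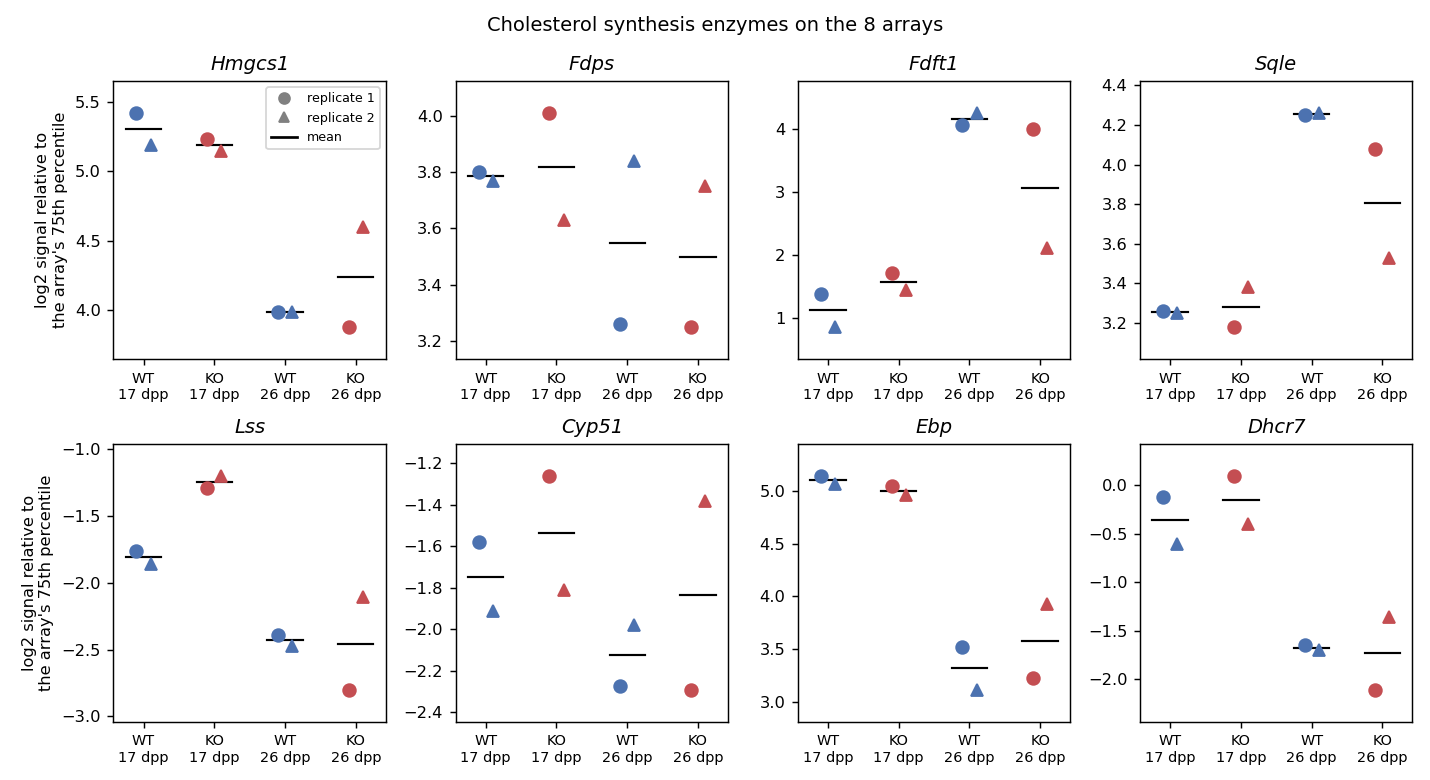
Log2 signal relative to the array's 75th percentile (vertical axis, a separate scale in each panel) for each enzyme on the 8 arrays, by genotype and age; circles are replicate 1, triangles replicate 2 and bars group means of 2 arrays. Fdft1 and Sqle are higher and Hmgcs1, Ebp and Dhcr7 lower on all 26 dpp arrays, and the 26 dpp knockout triangles lie away from the circles, at 2.11 against 4.0 for Fdft1.

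Hmgcs1 encodes the cytosolic HMG-CoA synthase, which supplies HMG-CoA to the mevalonate route. Its levels were 5.42 and 5.19 in the 17 dpp wild type, 5.23 and 5.15 in the 17 dpp knockout, 3.99 and 3.99 in the 26 dpp wild type, and 3.88 and 4.60 in the 26 dpp knockout. All 4 arrays at 17 dpp lay above all 4 at 26 dpp. The wild type difference was -1.31 (SE 0.302, limma adjusted p = 0.0217).

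Fdps makes farnesyl pyrophosphate, the branch point from which sterols, ubiquinone, dolichol and prenylated proteins are built. It read 3.80 and 3.77, then 4.01 and 3.63, at 17 dpp in wild type and knockout, and 3.26 and 3.84, then 3.25 and 3.75, at 26 dpp. The ages overlapped in both genotypes, and the wild type difference of -0.24 (SE 0.323, limma adjusted p = 0.553) did not pass. Its sign depended on 1 array: without replicate 1 of the 26 dpp wild type it was 0.05.

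Fdft1 encodes squalene synthase, the enzyme that commits farnesyl pyrophosphate to sterols. At 17 dpp it read 1.39 and 0.86 in the wild type and 1.71 and 1.45 in the knockout. By 26 dpp it read 4.06 and 4.25 in the wild type and 4.0 and 2.11 in the knockout. Every 26 dpp array was above every 17 dpp array, although replicate 2 of the 26 dpp knockout lay nearer to the 17 dpp arrays. The wild type difference of 3.03 (SE 0.608, limma adjusted p = 0.0161) was the largest of the 8 in absolute size.

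Sqle encodes squalene epoxidase, a flavoenzyme that adds the oxygen later kept as the hydroxyl of cholesterol. Its levels were 3.26 and 3.25 in the 17 dpp wild type, 3.18 and 3.38 in the 17 dpp knockout, 4.25 and 4.26 in the 26 dpp wild type, and 4.08 and 3.53 in the 26 dpp knockout. The ages did not overlap in either genotype. The wild type rise was 1.00 (SE 0.268, limma adjusted p = 0.0305).

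Lss closes squalene epoxide into lanosterol, the earliest sterol of the route. It read -1.76 and -1.86 in the 17 dpp wild type, -1.29 and -1.20 in the 17 dpp knockout, -2.39 and -2.47 in the 26 dpp wild type, and -2.80 and -2.11 in the 26 dpp knockout. Both 26 dpp wild type arrays were lower than both at 17 dpp, but the difference of -0.62 (SE 0.292, limma adjusted p = 0.119) did not pass. Without replicate 2 of the 26 dpp knockout, which enters the shared estimate of the spread, the same difference had an adjusted p of 0.0135 by limma.

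Cyp51 removes the 14-alpha methyl group of lanosterol. Its levels were -1.58 and -1.91, then -1.26 and -1.81, at 17 dpp in wild type and knockout, and -2.27 and -1.98, then -2.29 and -1.38, at 26 dpp. The wild type ages came close without overlapping, those of the knockout overlapped, and the wild type difference was -0.38 (SE 0.392, limma adjusted p = 0.436).

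Ebp, an X-linked gene, encodes the sterol isomerase that shifts a ring double bond late in the route. Its levels were 5.14 and 5.06 in the 17 dpp wild type, 5.04 and 4.96 in the 17 dpp knockout, 3.52 and 3.12 in the 26 dpp wild type, and 3.23 and 3.93 in the 26 dpp knockout. The highest 26 dpp array was below the lowest 17 dpp array by more than the spread within any group. The wild type difference was -1.78 (SE 0.313, limma adjusted p = 0.012).

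Dhcr7 carries out the final reduction from 7-dehydrocholesterol to cholesterol. It read -0.12 and -0.60, then 0.10 and -0.40, at 17 dpp in wild type and knockout, and -1.65 and -1.70, then -2.11 and -1.36, at 26 dpp. No 26 dpp array reached any 17 dpp array. The wild type difference was -1.32 (SE 0.361, limma adjusted p = 0.0321).

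The groups did not overlap between the ages in the wild type for 7 of the 8 members, all but Fdps, where 88.5% of all genes did not overlap. The calls depend on the arrays that set the spread. With either wild type array of either age left out, no member was called, and nearly all calls among all genes were lost too. With either 17 dpp knockout array left out, part of the calls were lost, among the members as among all genes. With either 26 dpp knockout array left out, 6 were called, Lss being added, and without replicate 2 of that group 70.3% of all genes were called. The direction of the 5 called members held in all 22 settings run, other scalings included.

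Between the ages in the knockout, 3 of the 8 passed, all lower: Lss at -1.21, Dhcr7 at -1.58 and Ebp at -1.42 on the log2 scale, with limma adjusted p of 0.0436, 0.0385 and 0.0357. Among all genes 15.8% passed, 8.12% as lower. Hmgcs1 differed by -0.95 (SE 0.302, limma adjusted p = 0.0818), Fdft1 by 1.47 (SE 0.608, adjusted p = 0.146), Sqle by 0.53 (SE 0.268, adjusted p = 0.213), Fdps by -0.32 and Cyp51 by -0.30, and none of these passed. The arrays of the 2 ages did not overlap for 6 of the 8 members, all but Fdps and Cyp51, against 60.1% of all genes. With either wild type array of either age or either 17 dpp knockout array left out, no member was called. Most calls among all genes were then lost too. Without replicate 1 of the 26 dpp knockout the call of Dhcr7 was lost, though more of all genes were called. Without replicate 2 of that group, 6 members were called against 61.1% of all genes, and their differences were -1.31 for Hmgcs1, 2.42 for Fdft1, 0.80 for Sqle, -1.55 for Lss, -1.96 for Dhcr7 and -1.77 for Ebp. In that fit a single array stands for the 26 dpp knockout, assumed to vary like the other groups.

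**Figure D2:**
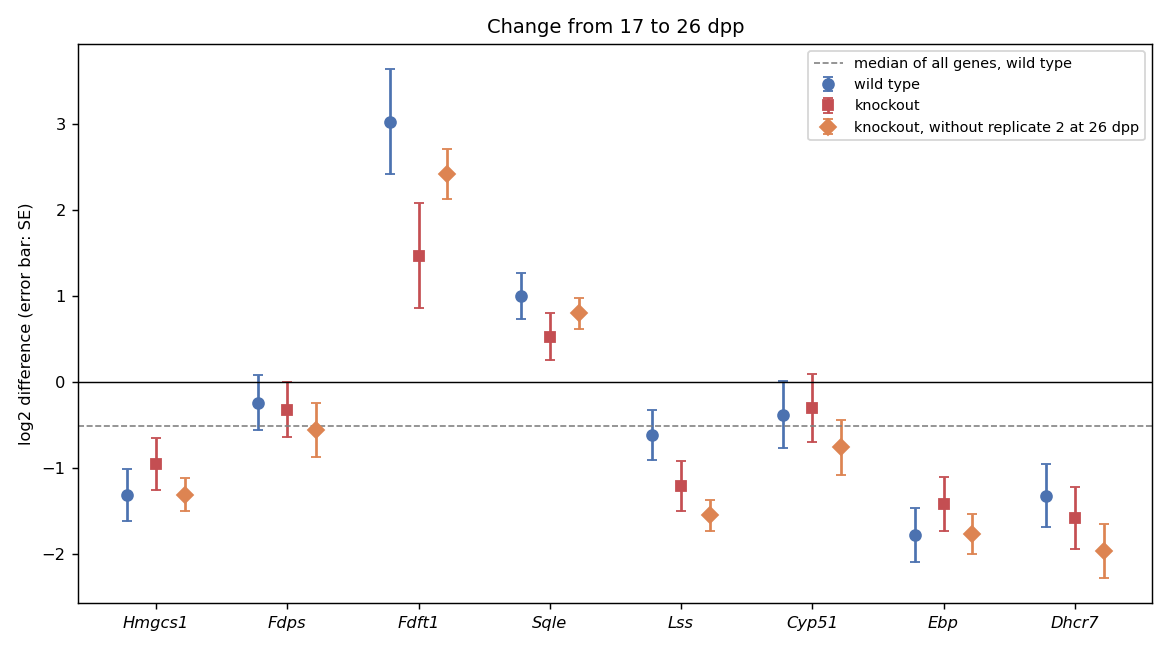
Log2 difference between 26 and 17 dpp (vertical axis, error bars SE from limma) for each enzyme in wild type, in knockout, and in knockout without replicate 2 at 26 dpp; the dashed line is the median of all genes in the wild type, -0.51. Fdft1 rose by 3.03 in the wild type and stood at 1.47 in the knockout, or 2.42 without that replicate.

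None of the 8 enzymes passed the test for a difference between knockout and wild type. At 17 dpp, 0 of 8 were called by limma, where 0.0945% of all genes were, and 0 of 8 had an unadjusted p under 0.05, as 382 of all genes had. Differences, knockout minus wild type, ran from -0.11 (Hmgcs1) to 0.57 (Lss, SE 0.292, limma adjusted p = 1). Both knockout arrays were above both wild type arrays for Lss and Fdft1 (0.45, SE 0.608) and below them for Ebp (-0.10, SE 0.313), 3 of 8 members, beside 28.6% of all genes whose groups did not overlap. The spread of 2 arrays a group leaves differences of this size undecided, and a p that misses the threshold does not show that the genotypes were alike.

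At 26 dpp, again 0 of 8 were called by limma, where 0.00756% of all genes were, and 0 of 8 had an unadjusted p under 0.05, as 637 of all genes had. The differences furthest from 0 were those of Fdft1, at -1.10 (SE 0.608, limma adjusted p = 0.521), and Sqle, at -0.45 (SE 0.268, limma adjusted p = 0.521). These 2 were also the only members whose groups did not overlap, where 32.8% of all genes did not. Without replicate 2 of the knockout they were -0.16 and -0.18, and all 8 differences then lay between -0.43 (Dhcr7) and -0.08 (Ebp), with 0 called and 0.0378% of all genes called. Without replicate 1 instead, Fdft1 differed by -2.05 (limma adjusted p = 0.00568), Sqle by -0.72 (adjusted p = 0.0278) and Hmgcs1 by 0.61 (adjusted p = 0.049), and 46.7% of all genes were called. Averaged over both ages, 0 of 8 members and 0% of genes were called, with 576 genes at an unadjusted p under 0.05, and the members ran from -0.33 (Fdft1) to 0.27 (Lss). Without replicate 1 of the 26 dpp knockout, 2 members were called in that average, Fdft1 at an adjusted p of 0.0317 and Lss at 0.0401 by limma, where 31.7% of all genes were called.

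The effect of the knockout was then compared between the ages through the interaction term. No member passed (0 of 8, and 0% of all genes, with 498 genes at an unadjusted p under 0.05). Without replicate 2 of the 26 dpp knockout, Lss had the difference of the effects furthest from 0, at -0.93. Dhcr7 stood at -0.64 in that fit, where 1 array stands for the group. With all arrays, Fdft1 was furthest from 0, at -1.56 (SE 0.859, limma adjusted p = 0.777). The Fdft1 difference was -0.61 without replicate 2 of the 26 dpp knockout. Without replicate 1 of that group it was -2.50 (limma adjusted p = 0.0113), and 33.6% of all genes were then called.

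**Figure D3:**
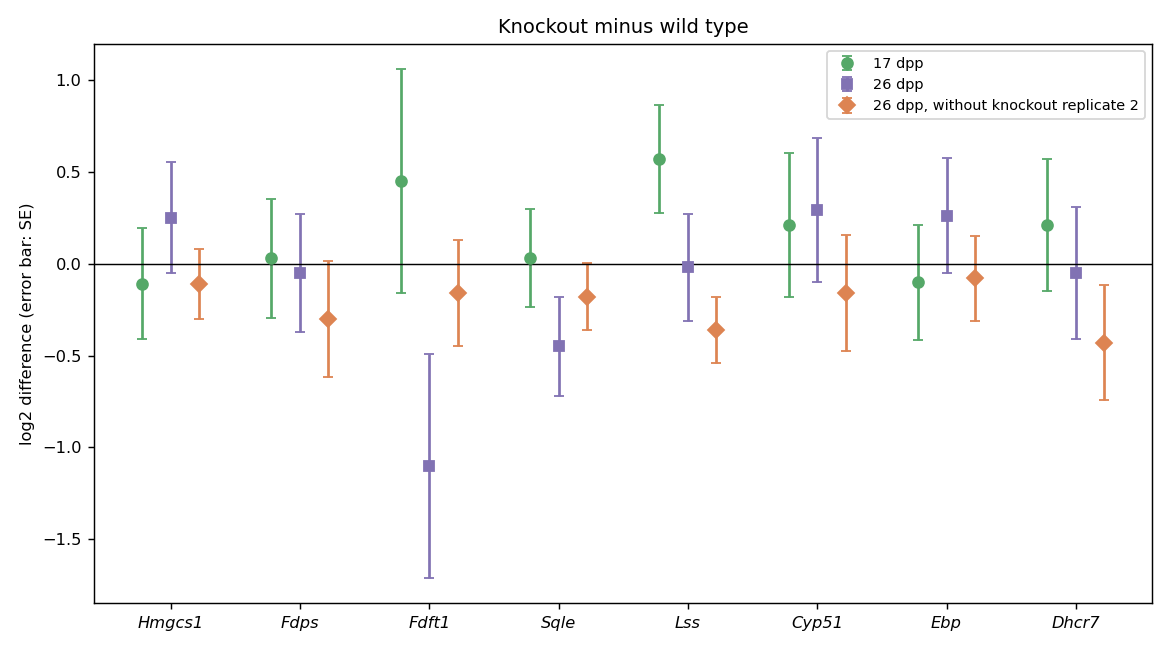
Log2 difference, knockout minus wild type (vertical axis, error bars SE from limma), for each enzyme at 17 dpp, at 26 dpp, and at 26 dpp without knockout replicate 2. The 26 dpp values of Fdft1 and Sqle, -1.10 and -0.45, become -0.16 and -0.18 when that array is left out.

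The pair of 26 dpp knockout arrays differed in the members as they did in the markers. Replicate 1 was below both 26 dpp wild type arrays for 7 of the 8 members, with a median difference of -0.17 from the wild type mean. Of all genes, 29.3% were below both there, and the median difference of all genes was -0.00689. On this array the margin was slight for Fdps (3.25 against 3.26), Cyp51 (-2.29 against -2.27) and Fdft1 (4.0 against 4.06). Dhcr7 had a wider margin on the same array, at -2.11 against -1.70. None of the 8 was nearer to the 17 dpp than to the 26 dpp wild type mean on it, as 8.04% of all genes were. On replicate 2, 5 of the 8 (Fdft1, Fdps, Sqle, Lss and Cyp51) were nearer to the 17 dpp wild type mean, as 60.8% of all genes were. Hmgcs1, Dhcr7 and Ebp were nearer to the 26 dpp mean there. Against the 26 dpp wild type mean, replicate 2 differed by -2.05 for Fdft1, -0.72 for Sqle, 0.75 for Cyp51 and 0.61 for both Hmgcs1 and Ebp. The part of spermatids, Leydig cells and Sertoli cells in these values was not tested.

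Each enzyme rested on 1 probe with 1 spot per array, placed by the files on mouse build mm9: Hmgcs1 at chr13_random:114793-114852, Fdps at chr3:88897549-88897608, Fdft1 at chr14:63765750-63769990, Sqle at chr15:59162688-59162747, Lss at chr10:76015992-76016051, Cyp51 at chr5:4081471-4081530, Ebp at chrX:7762463-7762522 and Dhcr7 at chr7:151033874-151033933. The Fdft1 probe covers an interval of 4241 bases, longer than the 60 bases of the other probes, so its ends lie in separated stretches of the genome. A further Fdft1 probe, at chr14:63764562-63764621, was well above background on 0 of the 8 arrays and gave no value, so the rise of Fdft1 was measured by only 1 of its 2 probes. The second Hmgcs1 probe, at chr13_random:114558-114617 and designed on another transcript record, was well above background on 3 arrays, all at 17 dpp. It read -4.59 and -4.80 in the 17 dpp wild type, -4.78 and -5.43 in the 17 dpp knockout, and was not well above background at 26 dpp, where it read -5.84, -6.99, -6.66 and -5.38. Set against the dimmest signal well above background, its wild type level was at least 1.53-fold higher at the younger age, and the limma adjusted p over all kept probes was 0.0503. The dim probe did not pass. It was kept only through the 17 dpp wild type, so it is no separate support for the fall of Hmgcs1. In the knockout its ages overlapped, with -5.43 at 17 dpp and -5.38 at 26 dpp on replicate 2. Which exon a probe covers was not determined, as no mm9 annotation was used here.

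Around the 8 enzymes, 4 lists of other sterol genes were set against all genes in the wild type, of which 18.6% were called higher and 27.4% lower at 26 dpp, with 35.9% above 0 and a median of -0.51. Of 13 other genes of cholesterol synthesis, 3 passed, all lower: Acat2, which makes acetoacetyl-CoA ahead of Hmgcs1, at -2.77 (limma adjusted p = 0.00726), Pmvk, phosphomevalonate kinase, at -0.98, and Erg28, which tethers late enzymes, at -0.97. Acat2 read -0.67 and -0.93 in the 17 dpp wild type and -3.55 and -3.59 at 26 dpp. Mvd (-1.61, SE 0.542, limma adjusted p = 0.052), Hsd17b7 (-1.43), Nsdhl (0.82) and Lbr (-0.77) did not pass. The median of the 13 was -0.69, with 10 of them below 0, and a count of 3 is a share below the 27.4% of all genes called lower.

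In the isoprenoid branch, which draws on the product of Fdps, 4 of 12 passed, all lower, beside 27.4% of all genes, with a median of -0.58 over the 12, beside -0.51. These were Ggps1, geranylgeranyl pyrophosphate synthase, at -2.10, Pdss1, which builds the ubiquinone side chain, at -1.90, and both subunits of Rab geranylgeranyl transferase, Rabggtb at -1.44 and Rabggta at -0.83 (limma adjusted p from 0.0177 to 0.0477). Coq2, at -1.18, and Pggt1b, at -0.70, did not pass. Of the 12 genes, 10 lay below 0 and 2 above. Those above were Fnta, at 0.68 (limma adjusted p = 0.0623), and Icmt, at 0.57, and neither passed.

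Among 11 regulators of sterol synthesis, 2 passed as higher and 4 as lower, beside 18.6% and 27.4% of all genes, and their median was -0.83. Of the 11, 7 lay below 0, much as among all genes. The site-2 protease gene Mbtps2 rose by 2.23 and Rnf139, a ubiquitin ligase of the endoplasmic reticulum, by 1.16. Lower genes were the site-1 protease gene Mbtps1 at -2.02, Scap, the SREBP escort, at -1.78, Srebf1 at -2.28 and Mylip, a ubiquitin ligase induced by sterols, at -2.34 (limma adjusted p from 0.0059 to 0.0439 over the 6). So the genes of the 2 proteases that release SREBP in turn went opposite ways. Mbtps2 read -3.66 and -3.71 in the 17 dpp wild type, -1.59 and -1.32 at 26 dpp, and -1.55 and -3.74 in the 26 dpp knockout. Srebf2, which encodes SREBP-2, differed by -0.83 (SE 0.323, limma adjusted p = 0.0747), and Insig1 by -1.14 (SE 0.470, limma adjusted p = 0.0879). Nr1h3 differed the other way, by 1.13 (SE 0.421, limma adjusted p = 0.0684), and like Srebf2 and Insig1 did not pass.

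Of 14 genes of sterol uptake, transport and efflux, 8 passed, all lower, beside 27.4% of all genes, with a median of -1.37 over the 14, beside -0.51. The cholesterol exporters Abcg1 and Abca1 stood at -2.80 and -1.41, the lysosomal exporters Npc1 and Npc2 at -2.23 and -1.34, and the ester hydrolases Nceh1 and Lipa at -1.52 and -1.40. The receptors Vldlr and Scarb1 stood at -2.23 and -0.95 (limma adjusted p from 0.0124 to 0.0439 over the 8). Vldlr read -1.43 and 0.13 in the 17 dpp wild type, the higher value on replicate 2, whose adipocyte markers summed to 266, and -2.52 and -3.24 at 26 dpp. Its difference was -1.45 without that replicate and -3.01 without replicate 1, and the part of adipocytes was not tested. Lipe, a neutral ester hydrolase, differed by 2.44 (SE 0.852, limma adjusted p = 0.0576) and did not pass. Apoe differed by -3.69 (SE 1.39, limma adjusted p = 0.0703), with 4.26 and 5.24 in the 17 dpp wild type and 3.35 and -1.23 at 26 dpp, so the older pair lay far apart. All 12 Sertoli markers lay lower at 26 dpp in the wild type, 9 of them past the test, and the part of Sertoli cells in these lists was not tested.

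Without replicate 2 of the 26 dpp knockout, the wild type counts became 9 of 13, 8 of 12, 9 of 11 and 11 of 14 in these 4 lists, against 70.3% of all genes. In the knockout, 1 gene of each list passed between the ages, all lower: Acat2 at -2.47, Rabggta at -1.13, Srebf1 at -1.91 and Lipa at -1.22. Among all genes 15.8% passed there, 8.12% as lower. Without that replicate the counts were 7, 6, 8 and 10, against 61.1% of all genes. Between knockout and wild type, 0 genes of the 4 lists were called by limma at either age, and the count at an unadjusted p under 0.05 was 0 at 17 dpp and 1 at 26 dpp, in the uptake and efflux list.

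**Figure D4:**
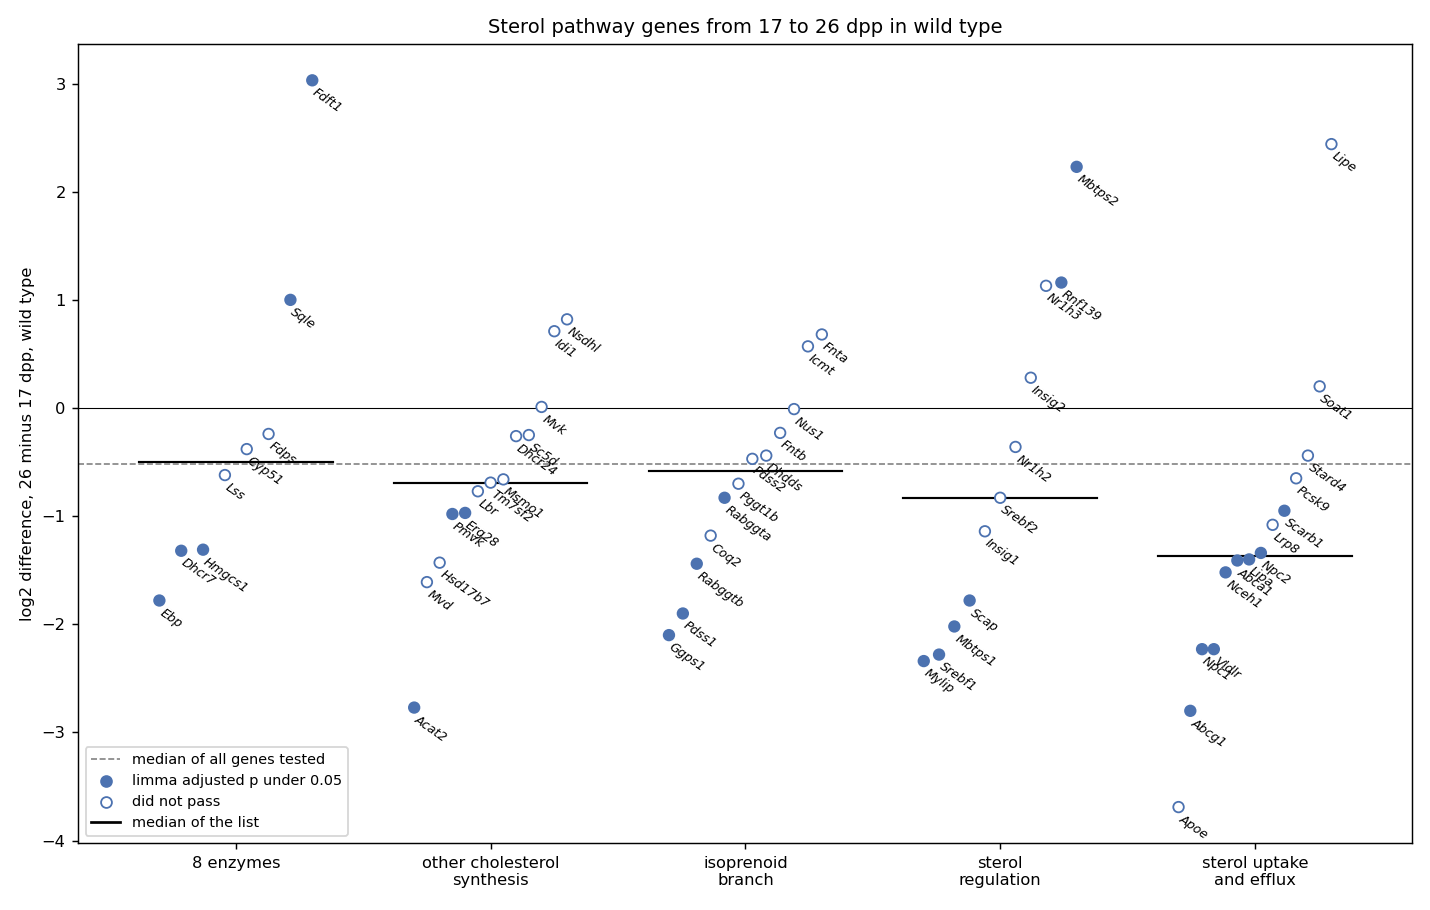
Log2 difference between 26 and 17 dpp in the wild type (vertical axis) for the 8 enzymes and 4 lists of sterol genes; each point is a gene, filled where limma's adjusted p was under 0.05, black bars are list medians and the dashed line is the median of all genes, -0.51. Fdft1 at 3.03 is the highest point of the 5 lists, and the uptake and efflux list has the lowest median, -1.37.

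The genes most like the members were sought by Pearson correlation over the 8 arrays with the mean of the members' centred levels, among 14950 candidates that were well above background on every array. The 5 nearest were Nckap5l (r = 0.973), Cad (0.968), Sergef (0.960), Zfp729b (0.959) and Prps1l3 (0.950). The mean profile joins members that rose and members that fell, and the arrays share their age groups, so these values are a description.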

How the data were processed

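RNA of 8 whole testis samples was labelled with Cy3 from an oligo-dT primer and hybridised to 1-colour Agilent arrays, per the labels. The deposited scanner files give each spot's intensity, processed by Agilent Feature Extraction (version 11.5.1.1 in the file headers), with probe positions on mm9. The deposited value table holds log2 values that the authors had normalized, which track the log2 processed signal of the same arrays (r at least 0.999913), with column medians of -3.84 to -3.59; how they were centred is not given in the sources used here.

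Here the processed signal was divided by the array's 75th percentile over non-control probes, put on the log2 scale and tested with limma 3.58.1 in R 4.3.3 (lmFit and eBayes, 4 group means, two-sided, Benjamini-Hochberg over 26450 genes, threshold 0.05). Spots with outlier marks were left out, probes had to exceed background clearly on each array of some group, and the brightest such probe stood for its gene. The script was tested on simulated arrays. Named were the 8 members with every probe, up to 8 called and 4 other genes of each sterol list, and the 5 most similar genes. Members, lists and tests were chosen with earlier results of these data known, and some genes of the sterol lists are not reported here. With 2 samples a group, precision is limited by their number, and p-values measure the spread between these samples. Alternatives were other scalings, filters and probe rules, array weights, a replicate block and each array left out.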

Additional observations from a re-analysis of the deposited data

Results flagged for a closer look

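Fdft1, which encodes squalene synthase, had both knockout arrays above both wild type arrays at 17 dpp and both below them at 26 dpp. The nearest knockout and wild type arrays were close, at 1.45 against 1.39 at 17 dpp and 4.0 against 4.06 at 26 dpp. Of all genes, 28.6% did not overlap between the genotypes at 17 dpp and 32.8% at 26 dpp. The difference of the knockout effects, 26 minus 17 dpp, was -1.56 on the log2 scale, and limma's interaction term did not pass (adjusted p = 0.777). Across its alternatives the value ran from -2.50 to -0.61 and the adjusted p from 0.0113 to 1. Replicate 2 of the 26 dpp knockout carried most of the difference at 26 dpp. It also stood apart in its spermatid and Leydig cell markers and in its summed Sertoli cell markers. The part of those cells was not tested.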

How the results depend on the processing

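No called difference changed sign in any alternative. The count of called members between the ages in the wild type was 5, where 45.9% of all genes were called. It was 3 with the replicate block (33.9% of all genes), 6 with array weights (76%) and 6 with the 4 arrays compared alone (71.5%). In the knockout the count of 3, beside 15.8% of all genes, became 4 with normexp (14.9%) and 2 with no filter on dim probes (9.87%). It was 0 with the array median in place of the 75th percentile (13.2%) and with array weights (0.2%). It was also 0 with the replicate block (4.69%) and with the 4 arrays compared alone (0%). With each array left out in turn, the counts ran from 0 to 6 for the wild type ages, 0 to 6 for the knockout ages, 0 to 0 for the knockout effect at 17 dpp, 0 to 3 at 26 dpp, 0 to 2 averaged over the ages and 0 to 1 for the interaction. Calls among all genes also rose and fell with the array left out. The causes were not tested. Deviations of same-numbered samples correlated between -0.402 and 0.111, with -0.402 between the wild type and knockout at 26 dpp. With 2 arrays a group, these values cannot decide whether the replicate numbers pair the samples. With the knockout numbers at 26 dpp crossed, the counts were 5 in the wild type and 2 in the knockout. Of all genes, 45.6% and 15% were then called. Setting the median of the genes tested to 0 on each array, chosen after seeing the data like the crossing, gave 5 and 2. The shares of all genes were 45.2% and 15%. A block for slide or row could not be fitted, as there was 1 slide and its rows held 1 age each. Depth here is signal over background: all 8 members were well above it on every array through their brightest probe.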
